A study of Mus musculus with 9 samples.

Results

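Hox genes encode homeodomain transcription factors that give cells their position along the head-to-tail axis of the embryo. They lie in clusters named A to D, and genes with the same number in different clusters (paralogs) are related by descent. Low numbers are used towards the head and high numbers towards the tail, and Polycomb proteins keep the unused part of each cluster silent. Adult skin keeps such patterns, mostly described in dermal fibroblasts, and Hoxc13 is required for hair and nails.

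The members described here are all 40 rows of the epidermal table whose symbol is Hox, a cluster letter a to d and a number, out of 36442 genes. They stand for 39 genes, because Hoxa3 is listed under 2 Ensembl identifiers, ENSMUSG00000079560 and ENSMUSG00000059723. Cluster A lies on mouse chromosome 6, cluster B on chromosome 11, cluster C on chromosome 15 and cluster D on chromosome 2. The tested cells were keratinocytes of the Mi2 group, with 2 libraries, and they were set against WT keratinocytes, also with 2 libraries. All were sorted directly from the epidermis of adult mice by FACS, and RNA was sequenced. Mi2 stands for Mi-2β, the chromatin remodelling ATPase encoded by Chd4, and the column names mark these libraries as knock-outs. The allele, any Cre driver, age, sex and body site of the skin, and whether the libraries of 1 group came from separate mice, are not stated by the labels, so p-values measure only the spread between these libraries. In bulk RNA, fewer cells of a type and less RNA per cell cannot be told apart.

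Values are normalized reads, the authors' read counts times 1 factor per library. A gene is said to rise, fall or be called where limma, a linear model fitted over all tested genes on log2(value + 1), gave a Benjamini-Hochberg adjusted p under 0.05; log2 changes are Mi2 minus WT. The libraries held 7662946 and 5682391 reads over genes in Mi2 epidermis and 7002100 and 8913804 in WT epidermis. Chd4 stood at 734 and 1207 normalized reads in Mi2 epidermis, against 1607 and 1942 in WT epidermis (log2 change -0.91, SE 0.27, limma adjusted p = 0.0456), and this call ended in 6 of 13 other settings, among them edgeR and the fits without Mi2 replicate 1 (log2 change -0.55), WT replicate 1 (-1.04) or WT replicate 2 (-0.77). Mitochondrially encoded genes took 29.7% and 15.5% of the values in Mi2 and 13.8% and 12.9% in WT epidermis, and with scaling that leaves them out 11 Hox genes were called lower, against 9 in the reported fit. Keratin genes of basal cells were abundant in every library, with Krt5 at 165634 and 135266 normalized reads in Mi2 and 125451 and 117800 in WT epidermis. Of all 14461 genes tested, 13.1% were called lower and 15.1% higher in Mi2 epidermis, 1900 and 2185 genes, which is 28.2% in either direction. Scaling without mitochondrial genes turned this balance to 2743 lower and 1531 higher. That setting gave the libraries equal totals over the other genes, in place of the authors' factors. How much of the shift came from the change of method, and how much from leaving these genes out, was not tested.

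Promoter windows of 5 members are shown because the values below turn on these genes: Hoxa7 carried the most Hox reads, Hoxb4, Hoxb8 and Hoxc4 fell with it, and Hoxa9 is a neighbour that was not called. Each window runs from 250 bases before to 50 after a RefSeq start (GRCm38.p6), written 5′ to 3′ on the gene's strand, with CG dinucleotides in capitals. The start used in epidermis was not measured, and several of these genes have others.
Hoxa7, chr6:52218524-52218823, minus strand: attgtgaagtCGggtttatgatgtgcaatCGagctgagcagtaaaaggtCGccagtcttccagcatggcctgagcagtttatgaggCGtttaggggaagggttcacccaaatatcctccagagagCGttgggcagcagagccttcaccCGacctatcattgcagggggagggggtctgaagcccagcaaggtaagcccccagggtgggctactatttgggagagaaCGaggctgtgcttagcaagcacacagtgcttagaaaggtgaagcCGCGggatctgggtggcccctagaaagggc
Hoxb4, chr11:96318017-96318316, plus strand: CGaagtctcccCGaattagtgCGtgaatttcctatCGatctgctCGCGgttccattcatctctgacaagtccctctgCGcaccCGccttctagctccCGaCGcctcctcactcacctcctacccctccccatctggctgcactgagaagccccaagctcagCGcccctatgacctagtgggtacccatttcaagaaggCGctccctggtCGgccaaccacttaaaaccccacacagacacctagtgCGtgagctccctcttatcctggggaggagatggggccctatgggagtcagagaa
Hoxb8, chr11:96281655-96281954, plus strand: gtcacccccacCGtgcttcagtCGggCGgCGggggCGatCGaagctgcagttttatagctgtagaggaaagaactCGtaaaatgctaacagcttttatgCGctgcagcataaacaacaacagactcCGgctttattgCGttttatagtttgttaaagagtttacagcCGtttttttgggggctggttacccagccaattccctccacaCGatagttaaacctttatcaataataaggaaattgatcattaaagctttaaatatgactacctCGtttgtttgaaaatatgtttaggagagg
Hoxc4, chr15:103034145-103034444, plus strand: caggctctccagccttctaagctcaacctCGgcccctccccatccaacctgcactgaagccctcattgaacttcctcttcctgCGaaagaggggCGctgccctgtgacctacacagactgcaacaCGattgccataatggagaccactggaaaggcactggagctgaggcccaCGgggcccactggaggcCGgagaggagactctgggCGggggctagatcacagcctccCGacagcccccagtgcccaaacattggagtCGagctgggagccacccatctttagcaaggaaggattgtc
Hoxa9, chr6:52227321-52227620, minus strand: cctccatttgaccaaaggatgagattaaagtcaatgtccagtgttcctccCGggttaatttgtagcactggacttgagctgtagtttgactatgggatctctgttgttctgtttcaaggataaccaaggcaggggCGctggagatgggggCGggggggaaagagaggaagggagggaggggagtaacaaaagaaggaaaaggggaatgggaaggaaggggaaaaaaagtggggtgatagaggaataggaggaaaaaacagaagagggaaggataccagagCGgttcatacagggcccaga
These windows hold 9, 14, 13, 9 and 4 CG dinucleotides in the order printed, and the median over all 32851 windows of the RefSeq table is 7. Over the 24 windows of 22 Hox genes, silent ones included, the number ran from 4 to 45 with a median of 14.5. The composite site of Pbx and Hox proteins, searched as TGATNNAT on both strands, has 1 match in the Hoxb8 window and none in the other 4 printed, and 8.85% of all windows hold it. The Hox core site TAATTA has no match in any of the 5, and 5.29% of all windows hold it; neither motif contains the other.

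Most Hox genes that keratinocytes expressed had fewer reads in Mi2 epidermis. Of the 21 members with a mean of at least 10 normalized reads, 9 fell, none rose and 12 were not called, so 42.9% were called lower where 13.1% of all genes were. Among the 9 is Hoxb5, which reached that mean only through the WT libraries (mean 9.36 in Mi2 and 31.4 in WT epidermis). With WT replicate 1 or WT replicate 2 left out, 1 member fell, and with Mi2 replicate 1 or Mi2 replicate 2 left out, 10 did; DESeq2 called 6 lower. The unadjusted p was under 0.05 for 12 members with a negative change and 0 with a positive one, which is 57.1% of the tested members, beside 42.5% of all genes. It was also under 0.05 for Hoxc13 and Hoxb9 with positive changes when Mi2 replicate 1 was left out, and for Hoxc13 in limma without trend, with adjusted p between 0.0861 and 0.0992. edgeR and DESeq2 on recovered reads called 0 higher. The median log2 change over the 21 was -1.01, beside -0.03 over all genes tested. The 2 groups of libraries did not overlap in 15 members lower in Mi2 and in 1 higher, where 35.8% and 34.9% of all genes show this.

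Summed over all members, there were 1514 and 1635 normalized reads in Mi2 epidermis, against 2981 and 3034 in WT epidermis. As a share of all counted reads this was 149 and 211 CPM in Mi2 and 429 and 469 CPM in WT epidermis. With mitochondrial genes left out of the total it was 212 and 250 CPM in Mi2 and 498 and 538 CPM in WT epidermis, so both Mi2 libraries stayed below both WT libraries. Hoxa7 alone gave 30.0% and 29.0% of the Hox values in Mi2 and 33.2% and 35.4% in WT epidermis, and without it the sum was 1060 and 1161 against 1992 and 1961 normalized reads.

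**Figure D1:**
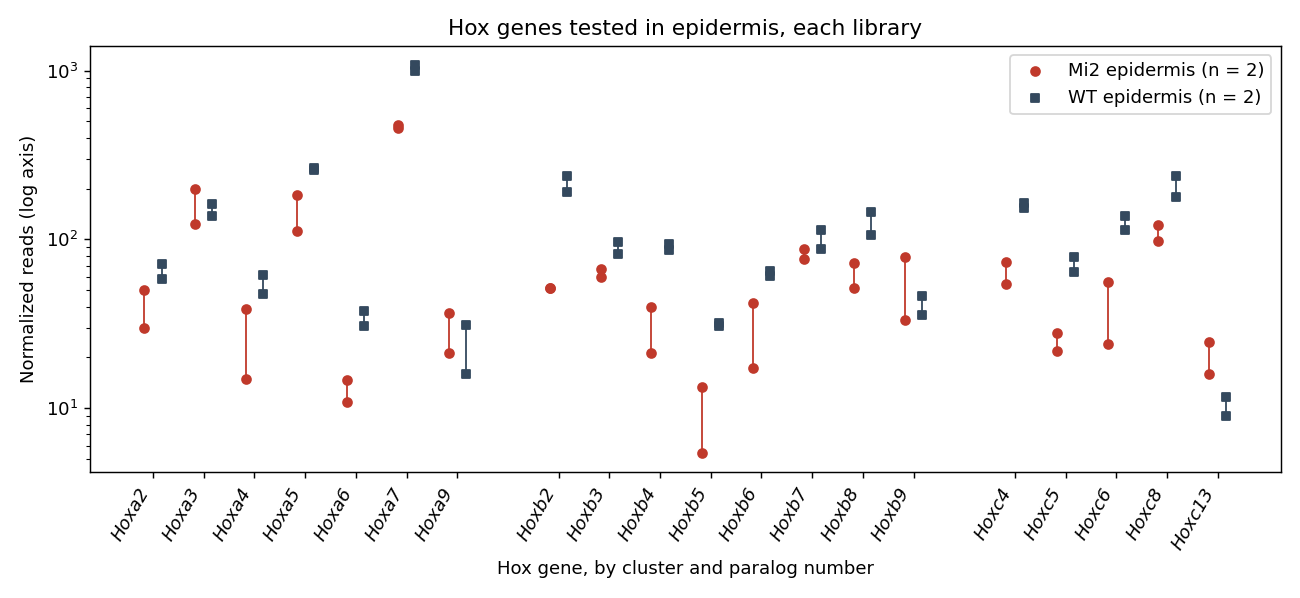
Normalized reads (log axis) of 20 tested Hox genes in each library, by cluster and paralog number, with Mi2 epidermis as circles to the left of WT epidermis as squares; a line joins the 2 libraries of a group. The Mi2 circles lie below the WT squares in 15 genes and above them in Hoxc13.

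The A, B and C clusters were in use and the D cluster was not. Cluster A had 8 of 12 rows tested, B 8 of 10, C 5 of 9 and D 0 of 9. Of the 40 rows, 16 had 0 reads in all 4 libraries: Hoxa10, Hoxa11 and Hoxa13, Hoxb1 and Hoxb13, Hoxc10, Hoxc11 and Hoxc12, and every D gene but Hoxd8. Hoxd8 had 1 and 0 reads in Mi2 and 0 and 1 in WT epidermis. A count of 0 allows up to 3 reads, which is 3.98 and 4.09 normalized reads in the Mi2 libraries and 2.98 and 2.18 in the WT libraries. Hoxc9 had 2 and 2 reads in Mi2 and 1 and 3 in WT epidermis. The second Hoxa3 identifier, ENSMUSG00000059723, had 3 and 0 reads in Mi2 and 10 and 13 in WT epidermis, and it was not tested. Such limits cover counting error only.

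In cluster A, Hoxa7 fell and 7 other tested genes were not called. Hoxa7, whose human counterpart has been described as a repressor of keratinocyte differentiation genes, had 454 and 474 normalized reads in Mi2 epidermis, against 989 and 1074 in WT epidermis. The libraries of each group lay close together and far from the other group (mean 464 ± 14.4 against 1032 ± 59.6, SD, n = 2 each; log2 change -1.15, SE 0.18, limma adjusted p = 0.00624). Its call ended without either WT library, where only the Mi2 libraries set the spread within a group (log2 change -1.21 and -1.09).

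The neighbours of Hoxa7 on its low-numbered side had negative changes that missed the threshold in the reported fit, and each passed it in other settings. Hoxa6 had 14.6 and 10.9 normalized reads in Mi2 and 30.8 and 37.7 in WT epidermis (log2 change -1.36, 95% interval -2.38 to -0.35, limma adjusted p = 0.0527). Hoxa5, which acts in lung and respiratory development, had 111 and 184 in Mi2 and 259 and 264 in WT epidermis (log2 change -0.86, -1.53 to -0.20, adjusted p = 0.0584). Hoxa4 had 38.5 and 15.0 against 61.5 and 47.2 (log2 change -1.13, -2.29 to 0.04, adjusted p = 0.127). In these 3 genes both Mi2 values lay below both WT values, as they did in 35.8% of all genes tested. Hoxa6 was called lower in 5 other settings, among them without Mi2 replicate 1 (log2 change -1.56) and with scaling that leaves out mitochondrial genes (-1.59). Hoxa5 was called lower without Mi2 replicate 2 (-1.22) and with that scaling (-1.10), and stood at -0.51 without Mi2 replicate 1. Hoxa4 was called lower without Mi2 replicate 1 (-1.78) and stood at -0.48 without Mi2 replicate 2. Hoxa2, which sets the identity of the second pharyngeal arch, had 50.4 and 30.0 in Mi2 and 71.5 and 58.1 in WT epidermis (log2 change -0.71, -1.58 to 0.16, adjusted p = 0.182).

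Hoxa3 and Hoxa9 had values that overlapped between the groups. Hoxa3, which is required for the thymus and parathyroid, had 198 and 124 in Mi2 and 162 and 138 in WT epidermis (log2 change 0.07, 95% interval -0.61 to 0.75, turning to -0.16 when scaled without mitochondrial genes and to -0.061 without the 50 most abundant genes). Hoxa9, a partner of Meis1 in leukaemia, had 21.2 and 36.8 in Mi2 and 15.9 and 31.2 in WT epidermis (log2 change 0.31, -0.87 to 1.49). The limma adjusted p was 0.876 for Hoxa3 and 0.661 for Hoxa9, and the lower bounds of the intervals lie nearer 0 than the log2 change of Hoxa7, a difference between genes that was not tested. The RefSeq Hoxa3 gene spans Hoxa4, Hoxa5 and Hoxa6, so how the authors' counting divided overlapping reads is uncertain.

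In cluster B, 4 of 8 tested genes fell, and the gene with the most negative change of any Hox gene, Hoxb2, was among them. Hoxb2, which patterns the hindbrain, had 51.7 and 51.8 normalized reads in Mi2 epidermis, against 238 and 191 in WT epidermis (mean 51.8 ± 0.0147 against 215 ± 33.4, SD, n = 2 each; log2 change -2.02, SE 0.26, limma adjusted p = 0.00322). It stayed called in all 13 other settings, with log2 changes between -2.25 and -1.86. It was the only Hox gene called without WT replicate 1 and also without WT replicate 2. Its neighbour Hoxb3 had 66.3 and 59.9 in Mi2 and 82.4 and 96.6 in WT epidermis (log2 change -0.49, 95% interval -1.14 to 0.16, adjusted p = 0.214). The ratio of Hoxb2 to Hoxb3 normalized reads was 0.780 and 0.864 in Mi2 libraries and 2.89 and 1.98 in WT libraries, so it was lower in both Mi2 libraries.

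Hoxb4, Hoxb5 and Hoxb8 also fell. Hoxb4, known for its action in blood stem cells, had 21.2 and 39.5 normalized reads in Mi2 and 94.3 and 86.4 in WT epidermis (log2 change -1.60, SE 0.38, limma adjusted p = 0.0219). Hoxb5, which acts in the nerve cells of the gut, had 13.3 and 5.45 in Mi2 and 30.8 and 31.9 in WT epidermis (log2 change -1.75, SE 0.54, adjusted p = 0.0492). These Hoxb5 values stood on 10 and 4 reads in the Mi2 libraries, and its call ended with DESeq2, with no filter and with a pseudocount of 0.5. Its mean was 9.36 in Mi2 and 31.4 in WT epidermis, so it reached the mean needed for a test only through the WT libraries. Hoxb8, a gene of blood progenitors and microglia, had 51.7 and 72.2 in Mi2 and 145 and 107 in WT epidermis (log2 change -1.01, SE 0.31, adjusted p = 0.0471). Its call ended in 6 of the 13 other settings, among them DESeq2, no filter and the fit without trend. Hoxb4, Hoxb5 and Hoxb8 were not called without WT replicate 1 or without WT replicate 2, and Hoxb8 also not without Mi2 replicate 1.

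The other B genes were not called in the reported fit. Hoxb6 had 17.2 and 42.2 normalized reads in Mi2 and 60.5 and 64.6 in WT epidermis (log2 change -1.18, 95% interval -2.27 to -0.09, limma adjusted p = 0.0972). It was called lower without Mi2 replicate 2 (log2 change -1.80, adjusted p = 0.0154) and stood at -0.56 without Mi2 replicate 1. Hoxb7 had 77.0 and 87.2 in Mi2 and 114 and 87.1 in WT epidermis (log2 change -0.28, -0.93 to 0.37, adjusted p = 0.471), so one Mi2 library lay just above one WT library. Hoxb9, which with its paralogs patterns the ribs, had 33.2 and 79.0 in Mi2 and 35.7 and 46.5 in WT epidermis (log2 change 0.32, -0.76 to 1.41, adjusted p = 0.621). The ratio of Hoxb9 to its neighbour Hoxb8 was 0.641 and 1.09 in Mi2 and 0.247 and 0.435 in WT libraries. The 2 Mi2 libraries differed more than the WT libraries in Hoxb6 and Hoxb9.

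In cluster C, all 4 tested genes with numbers from 4 to 8 fell. Hoxc4, which in mouse B cells acts on the gene of the antibody-mutating enzyme AID, had 54.4 and 73.6 normalized reads in Mi2 and 154 and 165 in WT epidermis (log2 change -1.32, SE 0.27, limma adjusted p = 0.0142). Hoxc5 had 27.9 and 21.8 in Mi2 and 78.4 and 63.9 in WT epidermis (log2 change -1.48, SE 0.34, adjusted p = 0.0202). Hoxc6 had 23.9 and 55.9 in Mi2 and 113 and 138 in WT epidermis (log2 change -1.74, SE 0.43, adjusted p = 0.0242). Hoxc8, which patterns the thoracic skeleton and motor neurons, had 122 and 98.1 in Mi2 and 179 and 237 in WT epidermis (log2 change -0.91, SE 0.26, adjusted p = 0.0394). In each of the 4 genes both Mi2 libraries lay below both WT libraries, as they did in 35.8% of all genes tested. None of them was called without WT replicate 1 or without WT replicate 2, and Hoxc8 also not without Mi2 replicate 2. Hoxc6 was not called by limma without trend, and Hoxc8 neither there nor with DESeq2 nor with no filter.

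Hoxc13, the hair and nail gene at the other end of the cluster, was the only tested member whose Mi2 values both lay above the WT values. It had 15.9 and 24.5 normalized reads in Mi2 and 8.93 and 11.6 in WT epidermis, on 12 and 18 reads in Mi2 and 9 and 16 in WT epidermis. The difference did not pass the test (log2 change 0.89, 95% interval -0.30 to 2.08, limma adjusted p = 0.219). It was positive in all 13 other settings, though with groups that do not overlap leaving out 1 library could not turn it negative.

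**Figure D2:**
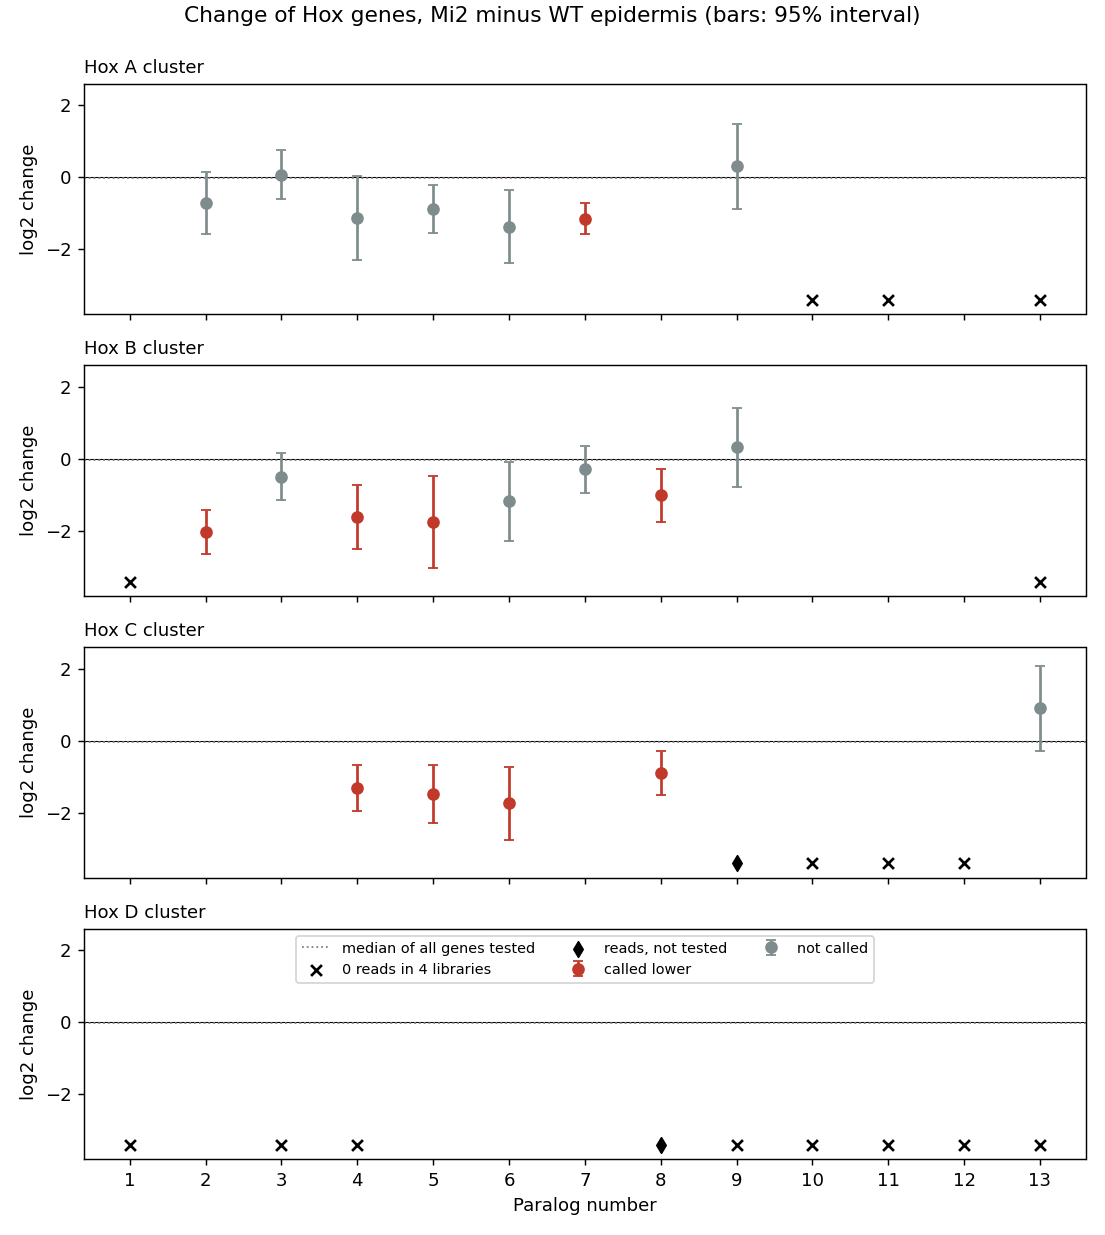
Fitted log2 change (Mi2 minus WT epidermis) with its 95% interval against paralog number, 1 panel per cluster; crosses mark genes with 0 reads in all 4 libraries and diamonds those with too few reads to test. Called genes, in red, have numbers between 2 and 8, and the 3 tested genes numbered 9 or 13 lie above 0 with intervals that cross it.

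Read by paralog number, all 9 called genes lay between 2 and 8. Of the 17 tested genes in that range, 9 fell, and 16 had a negative change. Among numbers 1 to 4, 3 of 8 tested genes fell, with a median log2 change of -0.92. Among numbers 5 to 8 it was 6 of 10, with a median of -1.16. The 3 tested genes from 9 to 13, Hoxa9, Hoxb9 and Hoxc13, were not called, and their median log2 change was 0.32. Hoxa9 turned negative without Mi2 replicate 2 or WT replicate 1, and Hoxb9 without Mi2 replicate 2. Whether paralog ranges differ from each other was not tested.

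Copies with the same number did not all pass the test. Hoxb2 fell while Hoxa2 missed the threshold, and their log2 changes were -2.02 and -0.71. Hoxb4 and Hoxc4 fell, with log2 changes of -1.60 and -1.32, and Hoxa4 at -1.13 was not called. Hoxb5 and Hoxc5 fell, with log2 changes of -1.75 and -1.48, and Hoxa5 stood at -0.86. Hoxa7 fell while Hoxb7 stood at -0.28, and both tested copies of number 8, Hoxb8 and Hoxc8, fell. No test of the difference between copies was made.

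Summed over each cluster, A, B and C all had fewer reads in both Mi2 libraries. Cluster A summed to 934 and 921 normalized reads in Mi2 and 1646 and 1705 in WT epidermis, a ratio of means of 0.553. Hoxa7 alone gave 464 of its mean of 927 in Mi2 and 1032 of 1676 in WT epidermis. The cluster A genes numbered 1 to 4 summed to 333 and 215 in Mi2 and 351 and 298 in WT epidermis, with overlap and a ratio of 0.844. Cluster B summed to 332 and 437 in Mi2 and 801 and 711 in WT epidermis, a ratio of 0.509. Cluster C summed to 247 and 277 in Mi2 and 534 and 618 in WT epidermis, a ratio of 0.454. The genes numbered 9 to 13 summed to 73.0 and 143 in Mi2 and 61.5 and 91.5 in WT epidermis, with overlap.

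**Figure D3:**
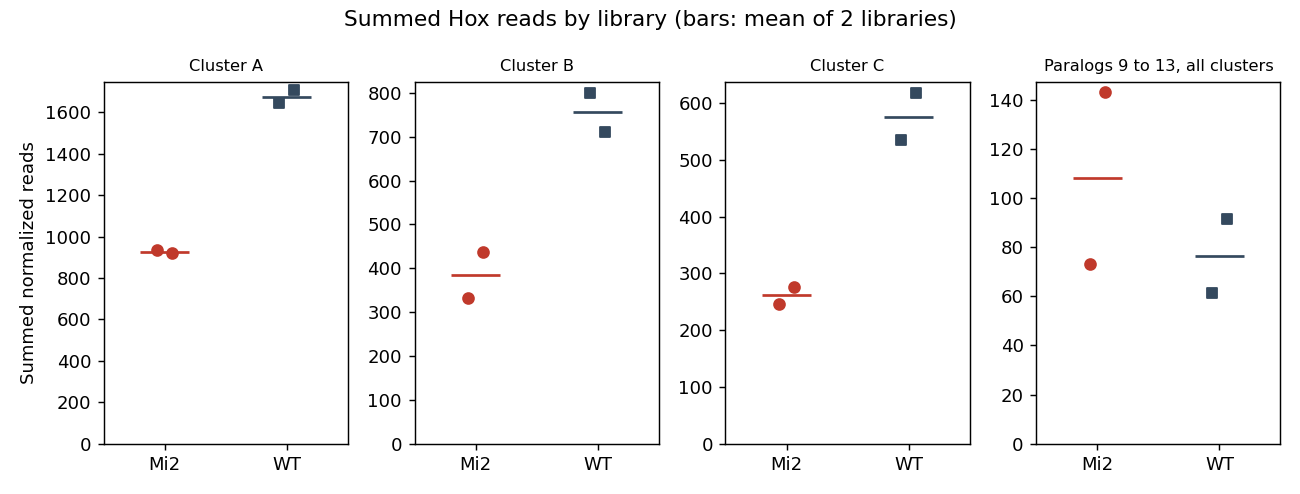
Summed normalized reads of Hox clusters A, B and C and of paralogs 9 to 13 of all clusters in each library, Mi2 left of WT, with a bar at the mean of 2 libraries and each axis starting at 0. The cluster sums of the Mi2 libraries lie at 45.4% to 55.3% of the WT means, and the sums of paralogs 9 to 13 overlap.

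Levels of different genes can be set side by side only per length, and the gene models behind the epidermal table are not given. Lengths of the longest RefSeq transcript listed in the Treg table (mm9) were used as an approximation. On that scale Hoxa7 ranked first in both groups, with 238 mean normalized reads per kilobase in Mi2 and 530 in WT epidermis. Hoxa5 was second, with 78.8 in Mi2 and 140 in WT epidermis. In Mi2 epidermis its library values of 59.5 and 98.2 overlapped those of Hoxb7, 60.8 and 68.9, and of Hoxa3, 78.0 and 48.9, so ranks 2 to 4 there did not differ beyond their spread. Hoxb2 ranked 7 in Mi2 with 31.8 per kilobase and 3 in WT epidermis with 132, where its library values of 147 and 117 lay on either side of the 138 and 141 of Hoxa5. Hoxa3 ranked 4 in Mi2 with 63.4 and 8 in WT epidermis with 59.1, and Hoxb9 ranked 12 in Mi2 and 19 in WT epidermis. In WT epidermis Hoxc4, Hoxb7 and Hoxc6, at 80.5, 79.5 and 79.0, did not differ beyond their spread.

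Some noncoding genes inside the clusters fell as well. Of 16 such genes in the table, 9 had 0 reads in all libraries, among them Hotair and Hottip, which are known to act on Hox genes. Of 4 tested, 2 fell and 2 were not called, so 50% were called lower where 13.1% of all genes were. Hoxb3os, antisense to part of the B cluster, had 46.4 and 47.7 normalized reads in Mi2 and 118 and 104 in WT epidermis (log2 change -1.22, SE 0.27, limma adjusted p = 0.0188). Hoxaas3, listed as 2700086A05Rik, had 95.5 and 99.4 in Mi2 and 197 and 189 in WT epidermis (log2 change -0.98, SE 0.23, adjusted p = 0.0201). Hotairm1, listed as Gm15051, had 54.4 and 53.1 in Mi2 and 92.3 and 51.5 in WT epidermis (log2 change -0.35, adjusted p = 0.484), and Hoxaas2, listed as 5730446D14Rik, had a log2 change of -0.11. On RefSeq, Hoxb3os overlaps Hoxb2 and Hoxb3, and Hoxaas3 overlaps Hoxa5 and Hoxa6. The strand setting of the counting is not given, so reads of these genes and their partners cannot be told apart. Both calls ended without either WT library.

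Genes just outside the clusters were not called in the reported fit. Of 9 tested flanking or nearby genes, 0 rose and 0 fell by limma, edgeR or DESeq2, with an unadjusted p under 0.05 for 3, 3 and 2 of them, where 42.5%, 42.5% and 35.8% of all genes had one. Smug1, a DNA repair glycosylase gene near cluster C, had 55.7 and 102 normalized reads in Mi2 and 146 and 182 in WT epidermis (log2 change -1.10, limma adjusted p = 0.0503), and it was called lower in 4 other settings, one of them without Mi2 replicate 2. Calcoco1 had a log2 change of -0.62, Hibadh of -0.55 and Atf2 of -0.51, with adjusted p of 0.0618, 0.112 and 0.177. Without Mi2 replicate 2, Smug1, Calcoco1 and Atf2 were called lower, with log2 changes of -1.53, -0.79 and -0.79, and with scaling that leaves out mitochondrial genes Smug1 and Calcoco1 were, at -1.33 and -0.85. The median over the 9 was -0.48. Evx1 and Evx2, homeobox genes at the ends of clusters A and D, had 0 reads in all 4 libraries, as did Skap1, Calcoco2 and Ttll6.

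Calls among partner proteins of Hox factors were about as frequent as over all genes. Of 10 tested genes of the TALE homeobox class, which bind DNA together with Hox proteins or compete with their partners, 2 rose and 2 fell, 20% each way beside 15.1% and 13.1% of all genes. Meis1 had 17.2 and 32.7 normalized reads in Mi2 and 96.3 and 147 in WT epidermis (log2 change -2.27, SE 0.41, limma adjusted p = 0.00947). Its relative Meis3 had 54.4 and 35.4 in Mi2 and 5.95 and 12.3 in WT epidermis (log2 change 2.22, SE 0.51, adjusted p = 0.0202). Pbx4 fell by 2.27 on the log2 scale, on only 4 and 3 reads in Mi2 and 31 and 31 in WT epidermis. With means of 4.70 in Mi2 and 26.6 in WT epidermis, Pbx4 reached the mean needed for a test only through the WT libraries. Meis3, with means of 44.9 in Mi2 and 9.15 in WT epidermis, reached it only through the Mi2 libraries. Tgif2, a corepressor of the class, rose by 1.94. The calls of Meis1, Pbx4 and Meis3 each ended without at least 1 library: Meis1 without WT replicate 2, Pbx4 without either WT library, and Meis3 without Mi2 replicate 1 or WT replicate 1. The caudal and ParaHox genes, which act upstream of or beside Hox genes in the embryo, had 0 reads in all 4 libraries in 6 of 6 cases.

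Genes of the Polycomb complexes that silence Hox clusters were also called at close to the frequency of all genes. Over both complexes, 5 of 31 tested genes rose and 6 fell, 16.1% and 19.4%, beside 15.1% and 13.1% of all genes. Of 11 tested genes of complex 2, which methylates histone H3 at lysine 27, 3 rose and 1 fell, 27.3% and 9.09%. Ezh1, one of its catalytic subunits, had 114 and 226 normalized reads in Mi2 and 427 and 465 in WT epidermis (log2 change -1.46, SE 0.33, limma adjusted p = 0.0184). Phf19, an accessory subunit, rose by 1.89, Rbbp7 by 0.82 and the core subunit Suz12 by 0.71 on the log2 scale. Scaled without mitochondrial genes, Rbbp7 and Suz12 were not called (log2 changes 0.58 and 0.47). Without WT replicate 1, none of the complex 2 genes was called, and without WT replicate 2 it was 1. Of 20 tested genes of complex 1, 2 rose and 5 fell, 10% and 25%. Bmi1 had 71.6 and 68.1 in Mi2 and 179 and 196 in WT epidermis (log2 change -1.41, SE 0.24, adjusted p = 0.00776), Cbx2 fell by 0.82, Cbx8 and Kdm2b also fell, Cbx6 rose by 2.54 and Phc1 rose by 2.37. Without trend and without each WT library in turn, 1, 0 and 0 of the complex 1 genes were lower, and without Mi2 replicate 1 it was 2. Of 14 tested trithorax and demethylase genes, which oppose Polycomb, 1 rose and 1 fell, 7.14% each way. Psip1 rose with a log2 change of 0.94, and Kmt2c, listed as Mll3, fell with one of -1.35. With Mi2 replicate 2 left out 7 of these genes were lower, Psip1 was not called with either WT library left out, and Kmt2c was not called with WT replicate 2 left out. Kmt2d, listed as Mll2, and Kdm6a had log2 changes of -0.86 and -0.54 and adjusted p of 0.0503 and 0.116.

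Hair genes linked to Hoxc13 were mixed. Of 20 such genes in the table, 6 had no reads and 6 were tested. Of the 6 tested, 3 rose and 2 fell, 50% and 33.3%, beside 15.1% and 13.1% of all genes. Foxn1, a regulator of hair keratin genes that lies downstream of Hoxc13 in mouse hair, had 341 and 354 normalized reads in Mi2 and 143 and 168 in WT epidermis (log2 change 1.16, SE 0.21, limma adjusted p = 0.00953; not called without either WT library). Dlx3, a homeobox gene of hair and epidermis, rose by 3.74 on the log2 scale. Padi3 had 792 and 347 in Mi2 epidermis and 0 reads in both WT libraries, so it reached the mean needed for a test only through the Mi2 libraries. Krt25, a keratin of the inner root sheath, had 10.6 and 16.3 in Mi2 and 80.4 and 85.7 in WT epidermis (log2 change -2.56, SE 0.38, adjusted p = 0.0052), and Msx2 fell by 1.84; no gene of the list was lower with either WT library left out. The share of hair follicle cells in each library was not measured.

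Dermal fibroblasts also express Hox genes, so their markers stand beside these results. The 13 fibroblast and dermis markers summed to 4945 and 3674 normalized reads in Mi2 and 1616 and 1518 in WT epidermis, of which Sparc, Thy1 and Postn, which other skin cells also express, made up most. Sparc and Thy1 rose, by 2.20 and 2.52 on the log2 scale. Postn had 138 and 1098 normalized reads in Mi2 and 489 and 847 in WT epidermis. The collagen genes were low and not called: Col1a1 had 18.6 and 4.09 in Mi2 and 72.4 and 12.3 in WT epidermis, and Col3a1 had 15.9 and 0 in Mi2 and 33.7 and 12.3 in WT epidermis. Dpt and Lum had 0 reads in both Mi2 libraries, and 1 and 1 (Dpt) and 3 and 1 (Lum) in WT epidermis. These WT counts do not pass the 3 reads that a count of 0 allows. Dcn had 0 and 1 reads in Mi2 and 6 and 6 in WT epidermis, above 3 in both WT libraries but too low to test. Col1a2 had 39.8 and 0 normalized reads in Mi2 and 55.6 and 5.81 in WT epidermis. Vim had 147 and 45.0 in Mi2 and 80.4 and 83.5 in WT epidermis, and both genes overlapped and were not called. Pdgfra, Pdgfrb and Fbn1 overlapped and were too low to test. Of 15 limb and body-site regulators, none reached the mean needed for a test, and Tbx4, Tbx5 and Alx1 had 0 reads in all 4 libraries.

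Markers of other cells were low beside the most abundant keratinocyte markers, Krt5, Krt14 and Dsp, but not beside all of them. In Mi2 epidermis Sparc, at 2944 and 1711 normalized reads, lay above the keratinocyte marker Epcam, at 1095 and 1053. Of 12 keratinocyte markers, Epcam and Sfn rose, Krt15 and Krt1 fell, and 8 were not called, Krt5, Krt14 and Dsp among them, with 79944 and 50895 normalized reads of Krt14 in Mi2 and 35020 and 32292 in WT epidermis. Immune markers summed to 443 and 813 in Mi2 and 291 and 483 in WT epidermis, with Cd74 higher by 1.44 on the log2 scale, H2-Aa at 0.71 and not called, and Lyz2 at 182 in WT replicate 2 but 0.992 in WT replicate 1. Immune markers with few reads went the other way in part. Cd3e had 0 and 2 reads in Mi2 and 12 and 7 in WT epidermis, and Fcer1g had 1 and 1 against 8 and 17. Both were too low to test. Melanocyte markers summed to 174 and 129 in Mi2 and 210 and 266 in WT epidermis, where Mitf fell by 3.38 and Pmel, listed as Si, and Sox10 were not called; Sox10, at 38.5 and 9.54 in Mi2 and 2.98 and 2.18 in WT epidermis, was called higher by DESeq2 (log2 change 3.24), by edgeR (3.18) and without Mi2 replicate 2 (3.47). Endothelial markers, led by Pecam1, Tie1 and Vwf, summed to 9.29 and 4.09 in Mi2 and 1.98 and 3.63 in WT epidermis. Muscle markers summed to 63.7 and 45.0 in Mi2 and 34.7 and 31.9 in WT epidermis, most of it Acta1. The part of any of these cells in the Hox results was not tested.

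**Figure D4:**
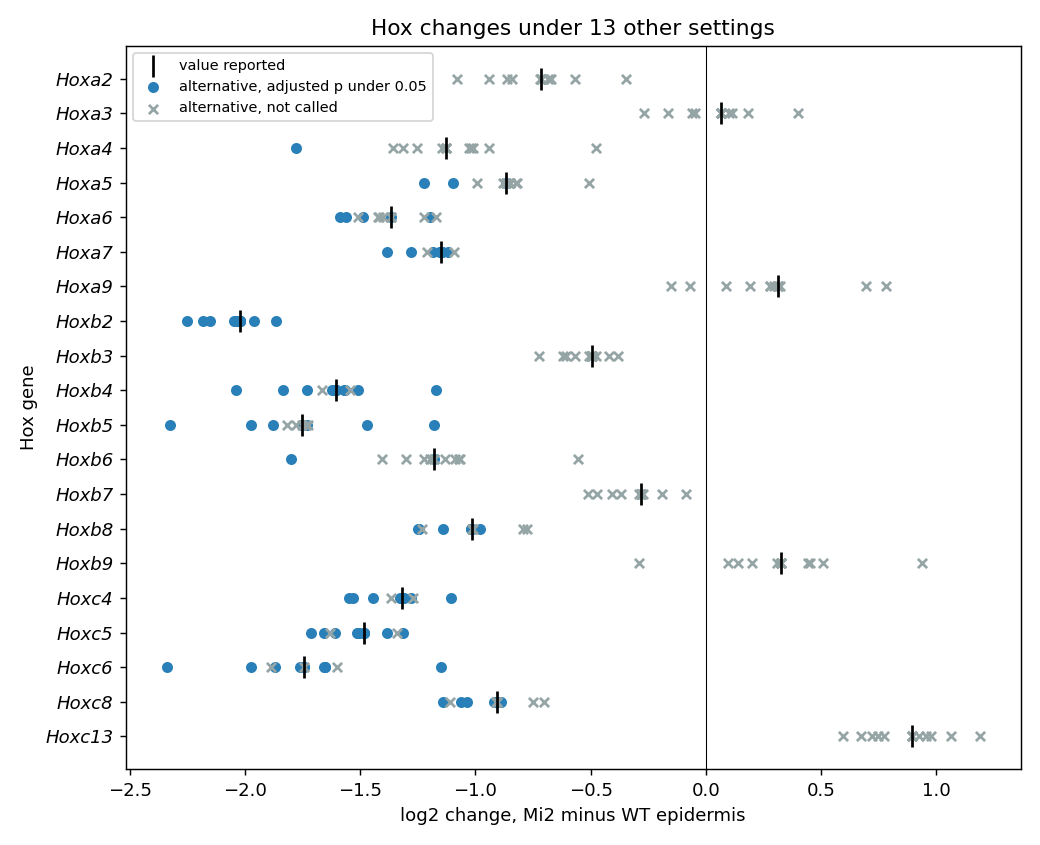
Log2 change (Mi2 minus WT epidermis) of 20 tested Hox genes as reported (black bar) and under 13 other settings, with dots where the adjusted p was under 0.05 and crosses where it was not. Every setting of the 9 called genes lies below 0, which for left-out libraries follows from groups that do not overlap. Hoxb2 has no cross.

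The regulatory T cell (Treg) libraries of the series were sorted from skin-draining lymph nodes, though their column names read skin Treg. The column name of the TSLPR-negative library also reads TMDKO. The Treg libraries were tabulated separately and held few Hox reads. Of 39 Hox genes in that table, 22 had 0 reads in all 5 libraries. Hoxb4 had 32.1 normalized reads in the TSLPR-negative Tregs of Mi2 mice, 54.7 and 37.8 in TSLPR WT Tregs of Mi2 mice and 29.6 and 31.3 in control (Ctl) Tregs. No other Hox gene passed 11 reads in any Treg library. The epidermal and Treg tables were scaled on their own, so no comparison was made between them.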

How the data were processed

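RNA of sorted keratinocytes (2 Mi2 and 2 WT libraries) and sorted Tregs (5 libraries) was sequenced. The submitters' processing notes name bcl2fastq 1.8.3, STAR, DESeq2, mm9 and mm10, with no role for each. The deposited signal of both tables is a normalized read count, reads multiplied by 1 factor per library by the authors; per the file headers, HOMER counted Treg reads in exons of mm9 RefSeq transcripts. Of the epidermal table, the counting program, annotation and strand setting are not given in those notes or headers, nor is which of 2 library kits, 1 of them stranded, made which library. Dividing by the smallest step gave whole reads, to within 0.05, for 100% of values above 0 in all 9 columns. Treg libraries held 21849381 to 32238992 reads.

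limma 3.58.1 (R 4.3.3) with an intensity trend was fitted to log2(value + 1) over the 14461 genes with a mean of at least 10 in the 4 epidermal libraries, two-sided, with Benjamini-Hochberg adjustment over all of them; a call is an adjusted p under 0.05. Fold changes on this scale understate the change of low genes. The fit was also run on simulated counts with 200 genes changed and the same spread setting for every gene. The check was only that median log2 changes came back near those set, so it does not measure false calls in these data. Alternatives were other pseudocounts, no filter, no trend, other scalings, edgeR 4.0.16 and DESeq2 1.42.0 on recovered reads (edgeR called 9 Hox genes and 4107 genes in all), a replicate block and each library left out. The other scalings gave the libraries equal totals over the genes kept, in place of the authors' factors. The design named edgeR for raw counts; the files hold normalized values, so its test for those was used. Of the epidermal identifiers, 31819 of 36442 matched a current symbol. Named were every Hox gene with a mean of at least 10, the 4 members of lowest p in each companion list, the 3 most abundant of each marker list, and Chd4; other names are in counts of 0 or were chosen after their values were seen. Results of some genes are not reported here by name, though counts and sums include them. The members and lists were chosen with earlier results of these data known. Promoter sequences are RefSeq's (GRCm38.p6); 9 of 21 tested genes had one.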

Additional observations from a re-analysis of the deposited data

Results flagged for a closer look

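Hoxb4 was the only Hox gene with more than 3 reads in every Treg library, a table that no comparison above uses. Its lowest count was 25 reads, in Ctl replicate 1, and its highest was 62, in TSLPR WT replicate 1 of Mi2 mice.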

How the results depend on the processing

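All 9 Hox genes called lower kept a negative change under all 13 other settings, a sign that was in part fixed in advance. The groups did not overlap in these 9 genes, so leaving out 1 library could not turn it. No filter, no trend and the replicate block left the log2 changes themselves as they were. No setting that kept every library called a Hox gene higher. With 1 library left out the number called lower ran from 1 to 10; it was 1 without either WT library, where 342 (without WT replicate 1) and 429 (without WT replicate 2) of all genes were called lower, against 1900 in the full fit. Other settings gave 6 (DESeq2, and also no filter) to 11 (scaling without mitochondrial genes). The replicate block also gave 11 Hox genes lower, Hoxa5 and Hoxb6 added, and called Smug1 and Calcoco1 lower and Sox10 higher, with 2558 lower and 2612 higher among all genes; the libraries share only a number (deviations of same-numbered libraries correlated at 0.12 over 14461 genes). Over left-out libraries, all genes called lower ran from 342 to 3099 and higher from 771 to 2716; companion list members called lower ran from 3 to 32 and higher from 9 to 18, against 16 and 16. Without trend, 10 companion members were lower. The median log2 change of the tested Hox genes, -1.01, was -1.24 when scaled without mitochondrial genes, -1.14 without the 50 most abundant genes, and -1.17 to -0.94 over left-out libraries; those scalings moved the median of all genes to -0.27 and -0.16. Reversed signs were seen in genes that were not called. Scaled without mitochondrial genes and without the 50 most abundant genes, Hoxa3 stood at -0.16 and -0.061 and Dsp at -0.17 and -0.067. Over left-out libraries, Hoxa3 ran from -0.27 to 0.40, Hoxa9 from -0.15 to 0.78, Hoxb9 from -0.29 to 0.94, Hotairm1 (Gm15051) from -0.77 to 0.060, Hoxaas2 (5730446D14Rik) from -0.56 to 0.34, Dsp from -0.014 to 0.14 and Postn from -2.21 to 0.77. The cause was not tested. Hoxb5, Hoxa6 and Hoxc13 had under 20 reads in each Mi2 library.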
